A study of Mus musculus with 40 samples.

Results

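Matrix metalloproteinases are zinc enzymes that cut collagen, elastin and other proteins of the extracellular matrix, and 9 of their genes are described here across a pair of mouse models of lung fibrosis. The members are Mmp2, Mmp3, Mmp8, Mmp9, Mmp11, Mmp12, Mmp13, Mmp14 and Mmp19, a named list of this family found by Ensembl identifier in the count tables. The members were chosen with earlier results of these data known. They are 9 of the 55536 genes in each table, and all 9 passed the filter on low counts in both models. The mouse genes Mmp1a, Mmp1b, Mmp7, Mmp10, Mmp15, Mmp16, Mmp17, Mmp20, Mmp21, Mmp23, Mmp24, Mmp25, Mmp27 and Mmp28 make up the other 14 genes of the family.

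RNA was sequenced from the left lungs of 40 C57BL/6 mice, 5 in each of 8 groups, taken on day 28. In the bleomycin model, mice received bleomycin (1.5 U/kg) or saline once by the oropharyngeal route, and in the Ad-TGFβ1 model they received by the nose an adenovirus that carries mouse TGF-β1 behind the CMV promoter, or an empty vector. From day 10 until the harvest every mouse was gavaged daily with saracatinib, an inhibitor of Src family kinases (20 mg/kg), or with its vehicle. The 8 groups are therefore bleomycin with saracatinib, bleomycin with vehicle, saline with saracatinib, saline with vehicle, Ad-TGFβ1 with saracatinib, Ad-TGFβ1 with vehicle, empty vector with saracatinib and empty vector with vehicle. The labels state that both sexes were used and name no further genotype. They tie no library to a cage, day or batch, and they do not say which lungs were processed together. The p-values therefore measure only the spread between these mice within groups. It was estimated over all groups of a model together, or over all 8 groups between models.

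Most metalloproteinases are made as inactive precursors in which a propeptide covers the catalytic zinc. Plasmin, furin-like convertases and other metalloproteinases remove the propeptide, and TIMP proteins block the mature enzyme. Mmp14 sits in the cell membrane and, with Timp2, activates the precursor of Mmp2, a gelatinase of stromal cells. Mmp12 is the elastase of macrophages, Mmp8 a collagenase of neutrophils, Mmp9 a gelatinase of neutrophils and macrophages, and Mmp13 a collagenase of stromal cells. Mmp3 is a stromelysin that cuts many matrix proteins and activates other metalloproteinases, and Mmp11 is activated inside the cell by furin. The transcript counts here measure neither the precursor, its activation nor the activity of the enzyme.

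The catalytic site shared by the family shows how alike these genes are at the site that names them. Each of the 9 coding sequences holds 33 bases that run from the first to the last of 3 histidine codons, which place the residues that bind the zinc ion. Over the 36 pairs of members, 20 to 27 of these 33 bases were identical. The sites of the 4 members that were higher in all 4 injury comparisons described below follow, with the histidine codons in capitals. They were read 5′ to 3′ from the GENCODE M21 coding transcripts, and on GRCm38 they lie at chr8:92839279-92839311, chr9:7352914-7352946, chr9:7276573-7276605 and chr14:54437627-54437659, each on the plus strand and within 1 exon.
Mmp2: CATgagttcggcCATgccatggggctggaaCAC
Mmp12: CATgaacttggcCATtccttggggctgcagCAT
Mmp13: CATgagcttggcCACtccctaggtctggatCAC
Mmp14: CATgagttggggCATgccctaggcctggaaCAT

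In the same annotation, 4 of the members lie in a group of 10 metalloproteinase genes on chromosome 9 that spans 427 kb. In chromosomal order these are Mmp13 (ENSMUSG00000050578, chr9:7272514-7283331, plus strand), Mmp12 (ENSMUSG00000049723, chr9:7344381-7369499, plus strand), Mmp3 (ENSMUSG00000043613, chr9:7445822-7455975, plus strand) and Mmp8 (ENSMUSG00000005800, chr9:7558456-7568485, plus strand). Outside the group lie Mmp2 (ENSMUSG00000031740, chr8:92827291-92853420, plus strand), Mmp9 (ENSMUSG00000017737, chr2:164940780-164955850, plus strand), Mmp14 (ENSMUSG00000000957, chr14:54431612-54445364, plus strand), Mmp11 (ENSMUSG00000000901, chr10:75923222-75936496, minus strand) and Mmp19 (ENSMUSG00000025355, chr10:128790910-128800824, plus strand). Each member is annotated as protein coding. Each count covers a whole gene and cannot be split by exon, untranslated region or isoform.

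Windows of 300 bases around the start of transcription were at hand for 6 of the 9 members. The windows of Mmp12, Mmp13 and Mmp3 are shown because these neighbours on chromosome 9 gave unlike results: Mmp12 and Mmp13 were higher in all 4 injury comparisons, and Mmp3 was called in none. The lines run 5′ to 3′ on the plus strand from RefSeq promoters (GRCm38.p6), 250 bases before to 50 bases after the annotated start, at chr9:7344147-7344446, chr9:7272264-7272563 and chr9:7445572-7445871. Capitals mark the AP-1 motif TGANTCA, searched on both strands, and the TATA box letters TATAAA, searched on the gene's strand.
Mmp12: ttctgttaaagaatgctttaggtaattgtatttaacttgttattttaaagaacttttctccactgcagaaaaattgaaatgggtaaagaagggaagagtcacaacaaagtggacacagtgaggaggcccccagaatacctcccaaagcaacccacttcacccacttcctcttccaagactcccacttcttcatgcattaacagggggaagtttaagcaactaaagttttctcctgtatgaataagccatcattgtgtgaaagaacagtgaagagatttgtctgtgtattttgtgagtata
Mmp13: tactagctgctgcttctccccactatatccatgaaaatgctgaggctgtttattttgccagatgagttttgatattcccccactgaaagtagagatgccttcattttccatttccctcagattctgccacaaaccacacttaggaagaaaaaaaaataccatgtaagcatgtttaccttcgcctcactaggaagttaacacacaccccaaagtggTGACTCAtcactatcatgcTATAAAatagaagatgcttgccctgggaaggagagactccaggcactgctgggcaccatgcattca
Mmp3: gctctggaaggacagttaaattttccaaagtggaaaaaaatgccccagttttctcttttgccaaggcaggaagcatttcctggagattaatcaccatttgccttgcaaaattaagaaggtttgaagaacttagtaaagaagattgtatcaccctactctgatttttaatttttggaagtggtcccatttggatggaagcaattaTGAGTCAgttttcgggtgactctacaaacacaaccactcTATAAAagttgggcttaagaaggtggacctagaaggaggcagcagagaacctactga

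Mmp13 and Mmp3 both hold the AP-1 letters, beginning at position -35 and at position -46 from the annotated start. Both hold the TATA letters, beginning at position -16 in Mmp13 and at position -7 in Mmp3. The Mmp12 window, taken at the lowest start coordinate listed for the gene, holds neither. For the other members the first window listed was used. Over all 32851 windows of this length, 7.81% held the AP-1 letters and 8.32% the TATA letters. A further search, for the RUNX letters ACCACA on both strands, which 16.8% of windows hold, found them in Mmp13 and Mmp14 alone of the 6 members. A match is a description of the letters and was not tested as a binding site.

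Libraries held 8812233 to 17336972 counts. Values are in CPM, counts divided by library size, after TMM scaling of all 40 libraries, with factors of 0.909 to 1.07. A fold change is a log2 value with its standard error (SE) from edgeR's quasi-likelihood test, fitted on the 20 libraries of a model or on all 40 between models, and a gene was called at a Benjamini-Hochberg adjusted p under 0.05 over all genes tested. The fits of a model have their own TMM scaling. Epithelial markers of lung, such as the surfactant gene Sftpc, summed to 7907 to 12106 CPM over their 12 genes in every library. The libraries farthest from their own group on the first 2 principal components were library 5 of saline with saracatinib, library 5 of saline with vehicle, and libraries 5 and 1 of empty vector with vehicle. In bulk tissue, fewer cells of a type and less RNA per cell cannot be told apart.

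Scaled by exon length, Mmp2 was the most abundant of the 9 transcripts in all 8 groups. It stood at 113 ± 12.8 CPM per kb in bleomycin lungs given vehicle and 36.7 ± 5.45 CPM per kb in saline lungs given vehicle, and at 78.2 ± 16.5 CPM per kb in Ad-TGFβ1 lungs given vehicle and 33.0 ± 5.11 CPM per kb in empty vector lungs given vehicle (means, SD, n = 5). Mmp14 was second in bleomycin lungs given vehicle (40.8 CPM per kb). In saline lungs given vehicle Mmp3 was second, at 19.9 CPM per kb, and Mmp14 came next at 13.1 CPM per kb. Mmp13 had the lowest mean in all 8 groups, with 0.778 CPM per kb in bleomycin lungs given vehicle and 0.208 CPM per kb in saline lungs given vehicle, but its range over libraries overlapped that of Mmp8 in every group except bleomycin with vehicle. Mmp12 had the widest ratio between group means, with 8.28 CPM per kb in bleomycin lungs given vehicle and 0.294 CPM per kb in saline lungs given saracatinib.

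**Figure D1:**
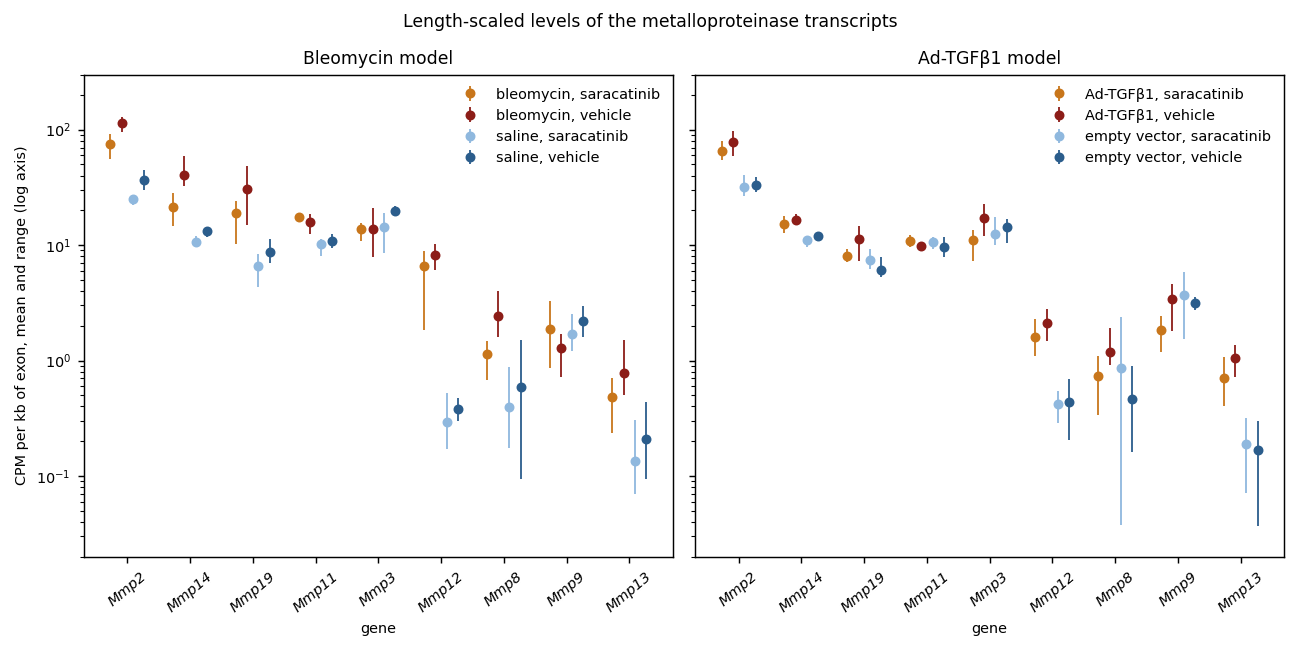
Mean CPM per kb of exon (points, log axis) of the 9 genes (x axis) in the 4 groups of the bleomycin model (left) and of the Ad-TGFβ1 model (right), with bars from the lowest to the highest of 5 libraries. Mmp2 lies above the other genes in all 8 groups, and Mmp12 lies at 8.28 CPM per kb in bleomycin lungs given vehicle and 0.294 CPM per kb in saline lungs given saracatinib.

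Bleomycin lungs given vehicle were set against saline lungs given vehicle to ask what the injury did to these transcripts. Of the 9 members, 8 were called, against 40.9% of all genes tested: 7 rose (20.6% of all 18846 genes tested were called higher), 1 fell (20.3% were called lower) and Mmp3 was not called. The median log2 fold change was 1.61 over the members and -0.03 over all genes tested. Because the members were chosen with earlier results of these data known, the contrast with all genes is a description. Over the 7 other metalloproteinase genes tested, 2 rose, 3 fell and the median was -0.03. The elastase Mmp12 rose 21.5-fold, the largest of the 9 fold changes. The collagenases Mmp8 (3.96-fold) and Mmp13 (3.67-fold), Mmp19 (3.41-fold), Mmp14 (3.06-fold) and Mmp2 (3.04-fold) came next.

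Mmp12 had 44.0, 67.4, 73.7, 46.0 and 68.5 CPM in the 5 bleomycin lungs given vehicle, against 3.40, 2.16, 2.57, 2.45 and 3.09 CPM in the 5 saline lungs given vehicle. Every injured lung lay far above every saline lung. The log2 fold change was 4.43 ± 0.37 (edgeR adjusted p = 2.23e-07). Macrophage markers moved with it: 11 of 14 were higher and 0 lower, and their sum was 1257 to 1927 CPM in bleomycin lungs given vehicle and 443 to 635 CPM in saline lungs given vehicle. None of the 14 was at 0 in either group, and their part in the Mmp12 result was not tested.

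The membrane protease Mmp14 and its target Mmp2 both rose. Mmp14 had 195, 244, 354, 208 and 213 CPM in bleomycin lungs given vehicle, against 70.6, 71.9, 83.8, 84.0 and 80.7 CPM in saline lungs given vehicle. Mmp2 had 414, 373, 430, 375 and 319 CPM in bleomycin lungs given vehicle, against 100.3, 119, 151, 127 and 121 CPM in saline lungs given vehicle. The groups did not overlap for either gene. The log2 fold change was 1.61 ± 0.16 for Mmp14 (edgeR adjusted p = 7.43e-07) and, for Mmp2, a value with a 95% interval of 1.33 to 1.88 (edgeR adjusted p = 2.23e-07). Fibroblast markers went both ways, with 4 of 12 higher and 6 lower and a median log2 fold change of -0.20. Their sum was 4908 to 9322 CPM in bleomycin lungs given vehicle and 3923 to 4856 CPM in saline lungs given vehicle. Col1a1 and Col1a2 reached 4578 and 3014 CPM in a library, above every other gene of the list, and the sum leans on them. No fibroblast marker was at 0, and the part of these cells was not tested.

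The collagenases were low in count and rose. Mmp13 had 1.35, 1.59, 4.02, 1.45 and 1.99 CPM in bleomycin lungs given vehicle (16 to 50 counts), against 0.454, 0.249, 0.468, 1.18 and 0.426 CPM in saline lungs given vehicle (3 to 13 counts). The lowest injured lung lay just above the highest saline lung, and the log2 fold change was 1.87 ± 0.44 (edgeR adjusted p = 0.00235). Mmp8 had 3.89, 7.20, 9.64, 4.25 and 4.26 CPM in bleomycin lungs given vehicle, against 0.227, 1.25, 3.66, 1.63 and 0.319 CPM in saline lungs given vehicle. Its groups did not overlap either, and it differed by 1.99 ± 0.49 (edgeR adjusted p = 0.00326). Of the 12 neutrophil markers 7 were tested, with 1 higher and 0 lower, and the sum over all 12 was 150 to 305 CPM in bleomycin lungs given vehicle and 105 to 198 CPM in saline lungs given vehicle. Mpo was at 0 in the saline vehicle group and no neutrophil marker was at 0 in the bleomycin vehicle group. Over all 40 libraries Mpo reached at most 0.106 CPM, so its 0 lies at the floor of counting. The highest medians of the list were those of Hdc (61.5 CPM) and Ltf (52.5 CPM), and the sum leans on these genes. Whether neutrophils had a part in the Mmp8 result was not tested.

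Mmp19, an enzyme of basement membrane proteins, had 105, 118, 170, 91.1 and 52.4 CPM in bleomycin lungs given vehicle, against 24.6, 39.6, 35.6, 27.4 and 26.9 CPM in saline lungs given vehicle. The groups were apart, with the widest spread among the injured lungs, and the log2 fold change was 1.77 ± 0.26 (edgeR adjusted p = 3.58e-05). Exons of Mmp19 overlap those of Tmem198b on the opposite strand over 22.3% of their bases. The labels do not say whether strand was used in counting, which leaves reads of that stretch uncertain. Tmem198b had 200 to 336 counts per library in bleomycin lungs given vehicle and 147 to 209 counts in saline lungs given vehicle, while Mmp19 had 738 to 2114 and 253 to 476 counts in those groups.

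Mmp11 rose by 0.52 ± 0.11 (edgeR adjusted p = 0.0014), with 44.2, 45.0, 34.3, 45.2 and 51.2 CPM in bleomycin lungs given vehicle and 34.6, 26.2, 26.0, 31.2 and 33.6 CPM in saline lungs given vehicle. Library 3 of the injured group fell within the saline range. Chchd10, on the opposite strand, overlaps 5.58% of the Mmp11 exon bases and had 293 to 588 counts in bleomycin lungs given vehicle and 410 to 609 counts in saline lungs given vehicle. Mmp9 fell by 0.80 ± 0.31 to 4.56 ± 1.55 CPM in bleomycin lungs given vehicle, against 7.82 ± 2.09 CPM in saline lungs given vehicle (SD, n = 5; edgeR adjusted p = 0.0469), with overlapping groups. The Mmp9 call is at the edge: without library 3, 4 or 5 of saline with vehicle, or library 1, 3 or 5 of bleomycin with vehicle, the edgeR adjusted p was 0.0637 to 0.124. It was also lost with limma voom (adjusted p = 0.0704), and in edgeR with DESeq2 size factors (0.0509), with no filter on low counts (0.0628) and without the 2 most distant libraries of each model (0.0939). Mmp3 had 16.6, 34.5, 38.0, 21.2 and 14.3 CPM in bleomycin lungs given vehicle, against 39.2, 33.2, 35.5, 35.6 and 35.5 CPM in saline lungs given vehicle. Its saline lungs were tightly grouped and its injured lungs lay both within and far below them, a difference of -0.54 ± 0.22 that was not called (edgeR adjusted p = 0.0588). Without library 2 or library 3 of bleomycin with vehicle, it was called (edgeR adjusted p = 0.0263 and 0.0140), as it was with limma voom (adjusted p = 0.00167).

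**Figure D2:**
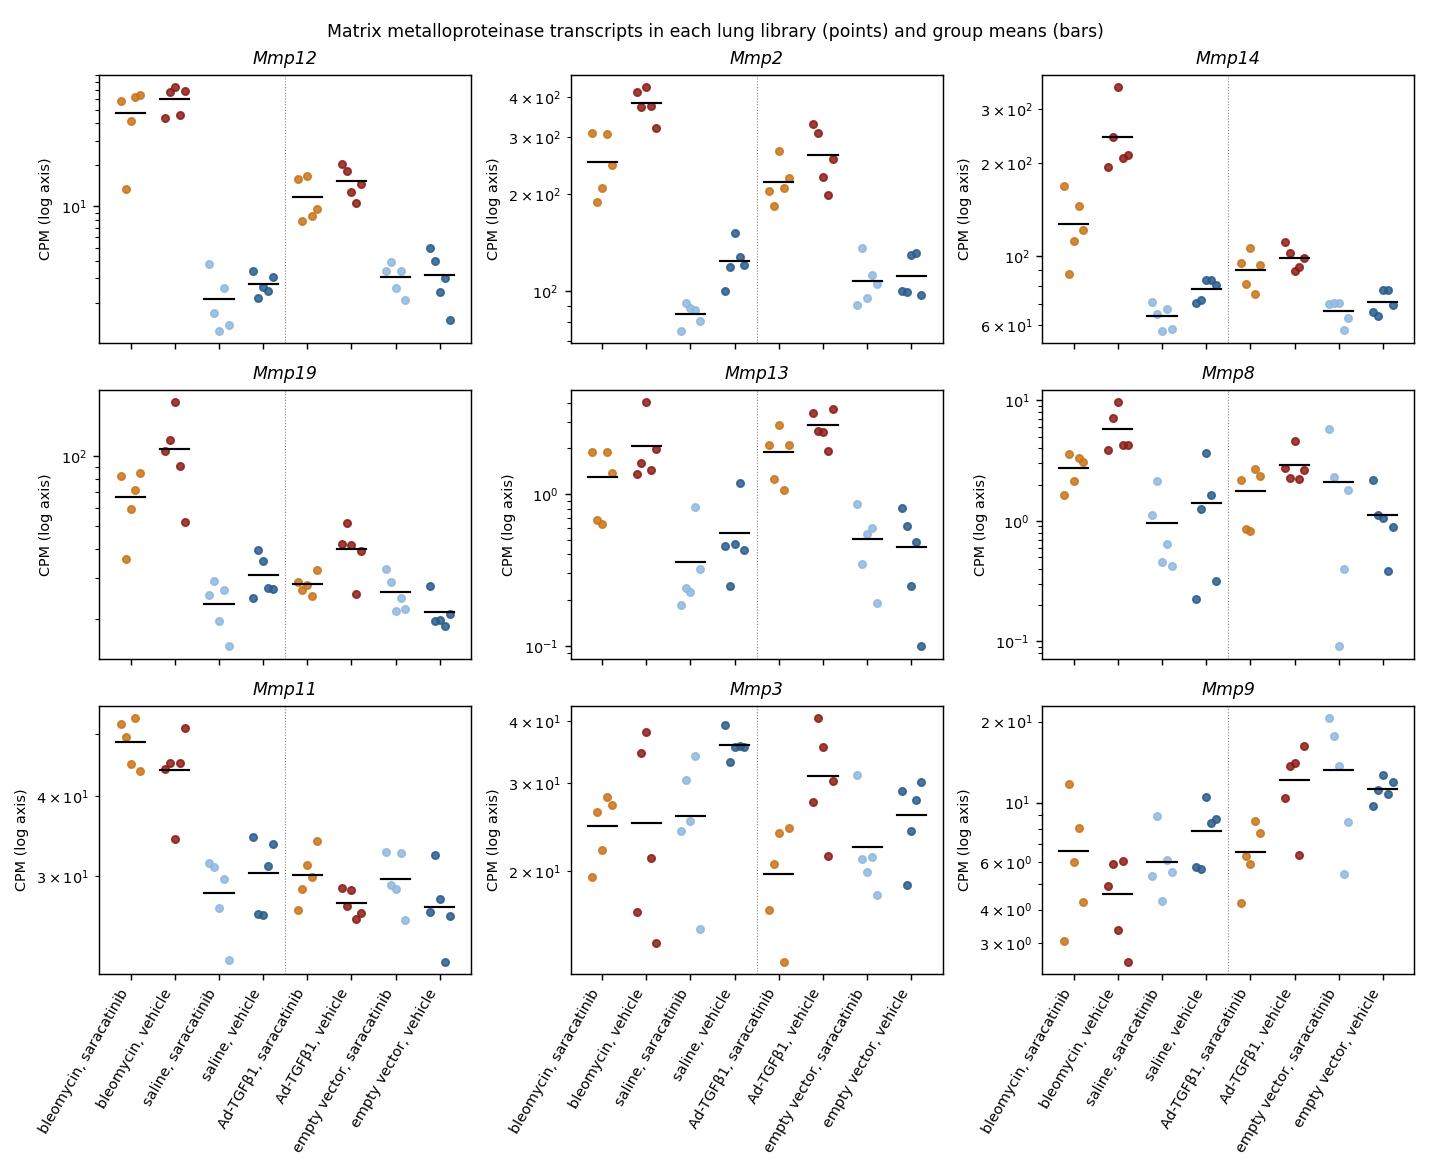
CPM (log axes) of each of the 9 genes in every library (points, 5 a group) with the group mean (bar), in the 8 groups (x axis). Mmp12 of bleomycin lungs given vehicle, at 44.0 to 73.7 CPM, lies far above saline lungs given vehicle at 2.16 to 3.40 CPM, whereas the Mmp3 groups overlap.

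Ad-TGFβ1 lungs given vehicle were set against empty vector lungs given vehicle to ask the same of TGF-β1 delivered to the lung. Of the 9 members, 5 were called, against 25.8% of all genes tested: 5 rose (11.5% of all 18834 genes tested were called higher), 0 fell (14.3% were called lower) and 4 were not called. The median log2 fold change was 0.89 over the members and -0.01 over all genes. The largest rise was that of the collagenase Mmp13, followed by Mmp12, Mmp2, Mmp19 and Mmp14.

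Mmp13 had 3.44, 2.59, 2.56, 1.93 and 3.62 CPM in Ad-TGFβ1 lungs given vehicle (20 to 59 counts), against 0.807, 0.615, 0.246, 0.485 and 0.0989 CPM in empty vector lungs given vehicle (1 to 10 counts). Every Ad-TGFβ1 lung exceeded every empty vector lung, and the log2 fold change was 2.61 ± 0.38 (edgeR adjusted p = 0.000363). Mmp12 had 20.1, 18.0, 12.6, 10.6 and 14.5 CPM in Ad-TGFβ1 lungs given vehicle, against 5.00, 4.00, 2.38, 3.01 and 1.48 CPM in empty vector lungs given vehicle. It differed by 2.24 ± 0.28 with no overlap (edgeR adjusted p = 0.000127). Macrophage markers were higher in 12 of 14 cases and lower in 0, with sums of 911 to 1050 CPM in Ad-TGFβ1 lungs given vehicle and 417 to 757 CPM in empty vector lungs given vehicle. Their part in the result was not tested.

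Mmp2 had 330, 308, 225, 198 and 257 CPM in Ad-TGFβ1 lungs given vehicle, against 100.2, 99.0, 129, 131 and 97.4 CPM in empty vector lungs given vehicle. It rose by 1.22 ± 0.15 (edgeR adjusted p = 6.44e-05). Mmp14 had 111, 102, 89.4, 92.3 and 98.4 CPM in Ad-TGFβ1 lungs given vehicle, against 66.1, 64.1, 77.8, 77.6 and 69.7 CPM in empty vector lungs given vehicle. The groups were apart for both genes, and Mmp14 rose by 0.46 ± 0.09 (edgeR adjusted p = 0.00144). Mmp19 rose by 0.89 ± 0.15 to 40.1 ± 9.40 CPM in Ad-TGFβ1 lungs given vehicle, against 21.4 ± 3.59 CPM in empty vector lungs given vehicle (edgeR adjusted p = 0.000886), with 1 Ad-TGFβ1 lung inside the range of the empty vector lungs. Tmem198b, which overlaps it, had 147 to 184 counts in Ad-TGFβ1 lungs given vehicle and 121 to 152 counts in empty vector lungs given vehicle.

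Mmp8 stood at 2.90 ± 0.984 CPM in Ad-TGFβ1 lungs given vehicle and 1.13 ± 0.654 CPM in empty vector lungs given vehicle. The groups did not overlap, but the difference of 1.31 ± 0.61 was not called (edgeR adjusted p = 0.119). In a fit of these groups alone it was called (edgeR adjusted p = 0.0274). Mmp3 (0.24 ± 0.19), Mmp9 (0.10 ± 0.29) and Mmp11 (0.00 ± 0.09) were not called either. The 95% interval of the Mmp11 difference, -0.18 to 0.19, was the narrowest of these.

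Under saracatinib, bleomycin lungs were set against saline lungs to ask whether the injury effect was there in treated mice. Of the 9 members, 6 rose (7.79% of all genes were called higher), 0 fell (8.18% were called lower) and 3 were not called. Mmp12 had 58.0, 13.3, 41.8, 62.1 and 63.7 CPM in bleomycin lungs given saracatinib, against 3.78, 1.67, 1.25, 2.56 and 1.38 CPM in saline lungs given saracatinib. Library 2 was by far the lowest of the treated injured lungs and still above every saline lung. The log2 fold change of 4.39 ± 0.37 (edgeR adjusted p = 1.26e-06) stood beside 4.43 ± 0.37 in vehicle lungs. Macrophage markers were higher in 10 of 14 cases and lower in 1, with sums of 737 to 1052 CPM in bleomycin lungs given saracatinib and 326 to 604 CPM in saline lungs given saracatinib, and their part was not tested. Mmp2 differed by 1.56 ± 0.13 (edgeR adjusted p = 1.26e-06), Mmp19 by 1.50 ± 0.26, Mmp14 by 0.98 ± 0.16, Mmp11 by 0.77 ± 0.11 and Mmp13 by 1.83 ± 0.50. Without library 1 or library 4 of bleomycin with saracatinib, Mmp13 was not called (edgeR adjusted p = 0.0562 and 0.0537). Mmp8 (1.43 ± 0.54, edgeR adjusted p = 0.0754), Mmp9 (0.11) and Mmp3 (-0.09) were not called, and Mmp8 was called without library 2 of saline with saracatinib (edgeR adjusted p = 0.0265). DESeq2 also called Mmp8 (adjusted p = 0.0373), as did edgeR in a fit of these groups alone (adjusted p = 0.0379).

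In Ad-TGFβ1 lungs given saracatinib, against empty vector lungs given saracatinib, 4 of 9 members were called, against 2.58% of all genes: 4 rose (2.21% of all genes were called higher), 0 fell (0.361% were called lower) and 5 were not called. Mmp12 had 15.7, 7.88, 16.7, 8.48 and 9.50 CPM in Ad-TGFβ1 lungs given saracatinib, against 3.37, 3.96, 2.55, 3.37 and 2.09 CPM in empty vector lungs given saracatinib. It differed by 1.92 ± 0.28 (edgeR adjusted p = 0.00173), Mmp13 by 1.82 ± 0.38, Mmp2 by 1.02 ± 0.14 and Mmp14 by 0.44 ± 0.09, each with no overlap between groups. Macrophage markers were higher in 5 of 14 cases and lower in 0, with sums of 604 to 1137 CPM in Ad-TGFβ1 lungs given saracatinib and 479 to 696 CPM in empty vector lungs given saracatinib, and their part was not tested. Mmp13 and Mmp14 were not called without library 3 of Ad-TGFβ1 with saracatinib (edgeR adjusted p = 0.0569 and 0.0544). Mmp19 was at 0.11 ± 0.15, with 28.2 ± 2.77 CPM in Ad-TGFβ1 lungs given saracatinib and 26.1 ± 4.75 CPM in empty vector lungs given saracatinib. Mmp9 was at -1.01 ± 0.29 (edgeR adjusted p = 0.0719), and it was called without library 4 of empty vector with saracatinib (edgeR adjusted p = 0.0237). DESeq2 also called Mmp9 lower with all libraries (adjusted p = 0.0197), among 793 genes it called. Mmp8 (-0.29), Mmp3 (-0.18) and Mmp11 (0.02) were not called. Over the 4 injury comparisons, 4 members were called higher in each: Mmp2, Mmp12, Mmp13 and Mmp14. How many of all genes were called higher in each was not counted. In Ad-TGFβ1 lungs given saracatinib 2.21% were. The 2 comparisons of a model share no library, but all 4 groups of a model share the estimate of spread.

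**Figure D3:**
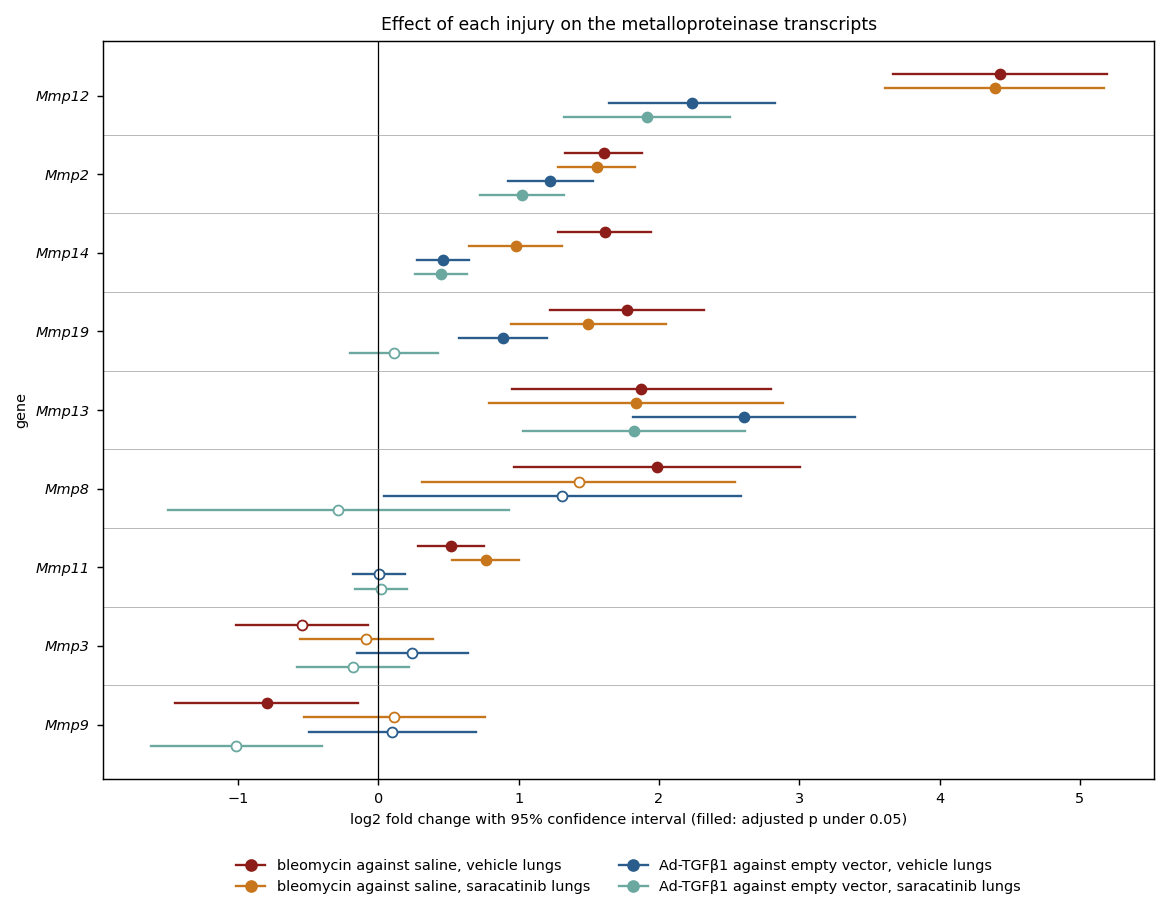
Log2 fold changes (points) with 95% confidence intervals (lines) of the 9 genes (y axis) for bleomycin against saline and Ad-TGFβ1 against empty vector, in vehicle and in saracatinib lungs, filled where the adjusted p was under 0.05. Mmp12 lies at 4.43 and 4.39 after bleomycin and at 2.24 and 1.92 after Ad-TGFβ1, and Mmp2, Mmp13 and Mmp14 are also filled in all 4 comparisons.

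Saracatinib was then set against vehicle in bleomycin lungs to ask what the inhibitor did once injury was under way. Of the 9 members, 2 fell (8.71% of all genes tested were called lower), 0 rose (5.31% were called higher) and 7 were not called. The 2 that fell were Mmp14 and Mmp2. The median log2 fold change was -0.60 over the members and 0.01 over all genes tested.

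Mmp14 had 169, 87.9, 112, 146 and 122 CPM in bleomycin lungs given saracatinib, against 195, 244, 354, 208 and 213 CPM in bleomycin lungs given vehicle. Every treated lung lay below every vehicle lung, and Mmp14 fell by 0.93 ± 0.16 (edgeR adjusted p = 0.00223). Mmp14 stood at 63.8 ± 5.97 CPM in saline lungs given saracatinib and 78.2 ± 6.47 CPM in saline lungs given vehicle. Mmp2 had 308, 188, 208, 307 and 245 CPM in bleomycin lungs given saracatinib, against 414, 373, 430, 375 and 319 CPM in bleomycin lungs given vehicle, and it fell by 0.60 ± 0.13 (edgeR adjusted p = 0.00558), also with no overlap. Macrophage markers were lower in 9 of 14 cases and higher in 0, with sums of 737 to 1052 CPM in bleomycin lungs given saracatinib and 1257 to 1927 CPM in bleomycin lungs given vehicle. Fibroblast markers were lower in 4 of 12 cases and higher in 2, with a median log2 fold change of -0.07. Their sums, which lean on Col1a1 and Col1a2, were 3451 to 4307 CPM in bleomycin lungs given saracatinib and 4908 to 9322 CPM in bleomycin lungs given vehicle. The part of either cell type in these falls was not tested.

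Mmp12 was not called, at -0.33 ± 0.29 (edgeR adjusted p = 0.485), with 47.8 ± 21.2 CPM in bleomycin lungs given saracatinib and 59.9 ± 13.8 CPM in bleomycin lungs given vehicle. Its 95% interval of -0.93 to 0.27 holds both falls and a small rise. Mmp19 was at -0.68 ± 0.25 (edgeR adjusted p = 0.0761) and was called without library 5 of bleomycin with vehicle (-0.85, edgeR adjusted p = 0.0184). Mmp8 was at -1.09 ± 0.45 with groups that did not overlap and was not called (edgeR adjusted p = 0.112), except in a fit of these groups alone (edgeR adjusted p = 0.0378). Its values were 1.65, 3.58, 2.14, 3.30 and 3.07 CPM in bleomycin lungs given saracatinib, against 3.89, 7.20, 9.64, 4.25 and 4.26 CPM in bleomycin lungs given vehicle. Mmp13 (-0.68 ± 0.39), Mmp9 (0.54 ± 0.31), Mmp11 (0.15 ± 0.11) and Mmp3 (-0.02 ± 0.23) were not called, and Mmp9 and Mmp11 had higher means with the drug.

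In saline lungs, edgeR's quasi-likelihood test called 0 members with saracatinib (0.00531% of all genes were called). Mmp2 had 75.2, 91.9, 88.3, 87.2 and 80.5 CPM in saline lungs given saracatinib, against 100.3, 119, 151, 127 and 121 CPM in saline lungs given vehicle. Every treated lung was below every vehicle lung, at -0.55 ± 0.13 (unadjusted p = 0.000398, edgeR adjusted p = 0.303), and DESeq2 called it (adjusted p = 0.0294). Mmp3 was at -0.48 ± 0.23. An unadjusted p under 0.05 was found for 1401 of all 18846 genes tested and for 2 members, Mmp2 and Mmp3. The other 7 ranged from -0.64 (Mmp13) to -0.10 (Mmp11).

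In Ad-TGFβ1 lungs, edgeR's quasi-likelihood test again called 0 members with saracatinib (0.0903% of all genes were called, 0.0478% higher and 0.0425% lower), as did DESeq2 and limma voom, and 3 members had an unadjusted p under 0.05. Of all 18834 genes tested, 1649 had an unadjusted p under 0.05. The 3 members were Mmp3 (-0.65 ± 0.19), Mmp19 (-0.50 ± 0.15) and Mmp9 (-0.89 ± 0.29), each with lower means under the drug and edgeR adjusted p of 0.36 to 0.432. Mmp9 had 4.22, 6.34, 5.89, 8.55 and 7.71 CPM in Ad-TGFβ1 lungs given saracatinib, against 10.4, 13.7, 14.1, 6.38 and 16.3 CPM in Ad-TGFβ1 lungs given vehicle. Library 4 of the vehicle group lay inside the treated range and the other 4 above it. Mmp14 was at -0.12 ± 0.09, with 90.3 ± 12.1 CPM in Ad-TGFβ1 lungs given saracatinib and 98.6 ± 8.50 CPM in Ad-TGFβ1 lungs given vehicle, and Mmp2 was at -0.27 ± 0.14. In empty vector lungs, edgeR, DESeq2 and limma voom each called 0 members (0.00531% of all genes with edgeR), 0 had an unadjusted p under 0.05, and the values ran from -0.23 for Mmp3 to 0.92 for Mmp8. Over all genes tested there, 2084 had an unadjusted p under 0.05.

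**Figure D4:**
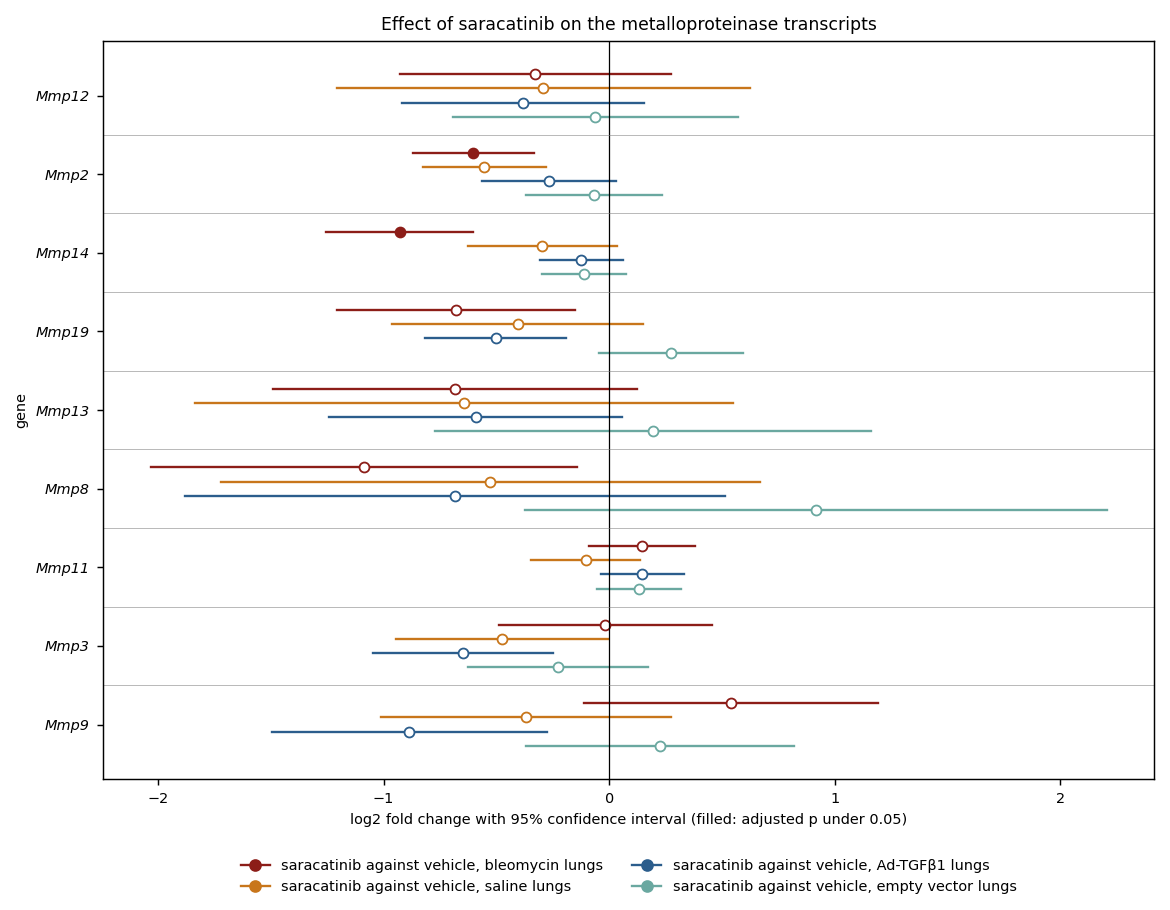
Log2 fold changes (points) with 95% confidence intervals (lines) of the 9 genes (y axis) for saracatinib against vehicle in bleomycin, saline, Ad-TGFβ1 and empty vector lungs, filled where the adjusted p was under 0.05. The filled points are Mmp14 at -0.93 and Mmp2 at -0.60, both in bleomycin lungs.

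Whether the drug effect differed between injured and uninjured lungs was tested as an interaction. In the bleomycin model 0 members were called by edgeR, DESeq2 or limma voom (1.06% of all genes with edgeR). An unadjusted p under 0.05 was found for 1 member and for 3449 of all 18846 genes tested. The member was Mmp14, with a drug effect of -0.93 in bleomycin lungs and -0.30 in saline lungs. The difference was -0.63 ± 0.22 (edgeR adjusted p = 0.137). For Mmp2 the effects were -0.60 in bleomycin lungs and -0.55 in saline lungs, a difference of -0.05 ± 0.18 with a 95% interval of -0.43 to 0.33. In the Ad-TGFβ1 model 0 members were called by the same tools, edgeR called 0% of all genes, and 2 members had an unadjusted p under 0.05. Over all genes of that test, 1933 had an unadjusted p under 0.05, DESeq2 called 1 and limma voom 413. The 2 members were Mmp19 (-0.78 ± 0.21, edgeR adjusted p = 0.481) and Mmp9 (-1.11 ± 0.41, edgeR adjusted p = 0.481).

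The models were then compared in 1 fit of all 40 libraries, as the bleomycin effect minus the Ad-TGFβ1 effect in vehicle lungs. Of the 9 members, 3 were called, against 15.1% of all 19529 genes tested: 3 were higher (8.64% were called higher), 0 were lower (6.47% were called lower) and 6 were not called. The rise of Mmp12 was larger after bleomycin by 2.20 ± 0.48 (edgeR adjusted p = 0.00167) and that of Mmp14 by 1.16 ± 0.19 (edgeR adjusted p = 6.11e-05). The effects on Mmp11 differed by 0.52 ± 0.15 (edgeR adjusted p = 0.0136), where Mmp11 was at 0.00 ± 0.09 after Ad-TGFβ1. With limma voom the Mmp12 difference was 1.88 (adjusted p = 0.0507). Macrophage markers moved with it, with 8 of 14 higher and 0 lower, and fibroblast markers went both ways, with 3 of 12 higher and 6 lower. Their part in these differences was not tested. Mmp2, at 0.38 ± 0.20, and Mmp13, at -0.72 ± 0.63, were not called, and the Mmp13 interval of -2.00 to 0.55 is wide at these counts. Mmp19 was at 0.89 ± 0.32 (edgeR adjusted p = 0.0516) and was called by DESeq2 (adjusted p = 0.0338). Mmp3 was at -0.78 ± 0.31 (edgeR adjusted p = 0.0813) and was called by limma voom (adjusted p = 0.00537).

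The drug effect in bleomycin lungs minus that in Ad-TGFβ1 lungs was called for 1 member, which was lower (2.46% of all genes were called, 1.41% lower and 1.05% higher). This was Mmp14, with a difference of -0.80 ± 0.19 (edgeR adjusted p = 0.0198). The call rested in part on library 3 of bleomycin with vehicle, the highest Mmp14 value of all 40: without it the difference was -0.63 (edgeR adjusted p = 0.0613). In a fit of the 4 groups involved alone it was -0.79 (edgeR adjusted p = 0.0648). Mmp9 was at 1.43 ± 0.44 and was not called by edgeR (adjusted p = 0.074), and DESeq2 called it (adjusted p = 0.038). Macrophage markers were lower under the drug in 9 of 14 cases in bleomycin lungs, and their sums in Ad-TGFβ1 lungs were 604 to 1137 CPM with saracatinib and 911 to 1050 CPM with vehicle. Their part in the difference was not tested.

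Empty vector lungs and saline lungs given vehicle differed widely, in 26.2% of all genes, while edgeR called 0 members and DESeq2 0. Mmp3 (-0.46 ± 0.22, edgeR adjusted p = 0.113) and Mmp19 (-0.52) had an unadjusted p under 0.05, and limma voom called these 2. Of all 19529 genes tested, 7329 had an unadjusted p under 0.05, and limma voom called 6840. The vector, the route and the cohort cannot be told apart in that comparison. Cardiac muscle markers were higher in 7 of 8 cases there, and after bleomycin they were lower in 6 of 8 cases and higher in 0, with sums of 70.3 to 187 CPM in bleomycin lungs given vehicle and 210 to 560 CPM in saline lungs given vehicle. Ciliated cell markers were lower in 8 of 8 cases after bleomycin and in 8 of 8 after Ad-TGFβ1, in vehicle lungs. The part of either list in the member results was not tested.

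Of the 4 members of the chromosome 9 group, Mmp13, Mmp12 and Mmp8 rose after bleomycin in vehicle lungs and Mmp3 was not called. Differences between these genes were not tested. In bleomycin lungs given vehicle, in order of their coordinates, Mmp13 was at 1.87, Mmp12 at 4.43, Mmp3 at -0.54 and Mmp8 at 1.99 on the log2 scale against saline lungs. After Ad-TGFβ1, in vehicle lungs, the same genes were at 2.61, 2.24, 0.24 and 1.31. Of the other 6 genes of the group, Mmp27 was tested in the bleomycin model, where it fell by 0.91 ± 0.34 at a mean of 0.750 CPM (edgeR adjusted p = 0.0375), and the rest had at most 28 counts in any library. Mmp12 exons overlap those of Mmp1b on the opposite strand over 2.17% of their bases, and Mmp1b had 0 to 1 counts per library.

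**Figure D5:**
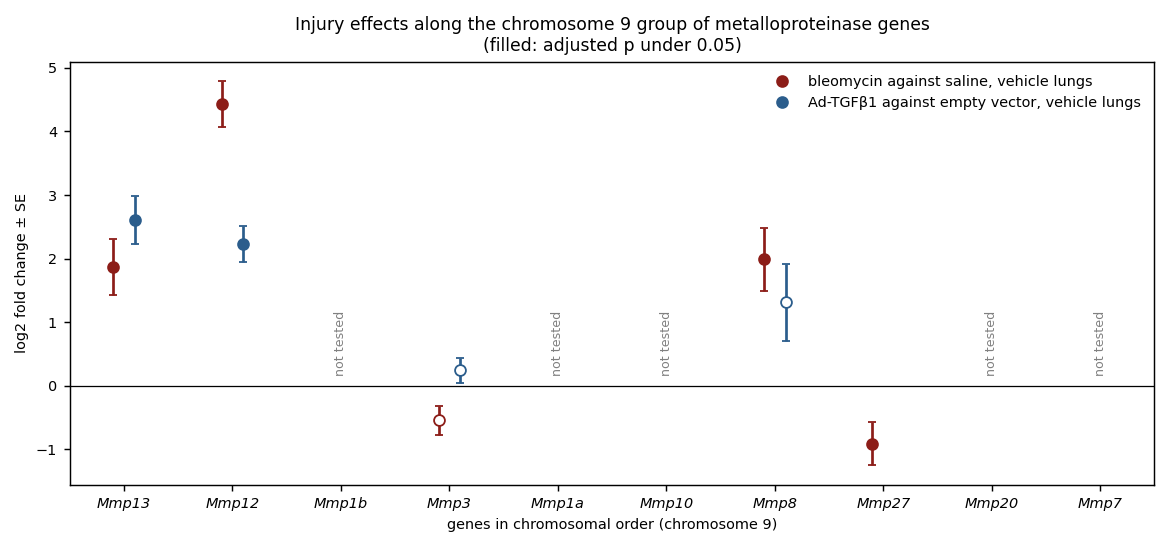
Log2 fold changes (points) with SE (bars) of the metalloproteinase genes on chromosome 9, in chromosomal order (x axis), for bleomycin against saline and Ad-TGFβ1 against empty vector in vehicle lungs. Mmp13 and Mmp12 lie above 0 in both models, at 1.87 and 4.43 after bleomycin, while their neighbour Mmp3 lies at -0.54 and 0.24.

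Over all 40 libraries, log2 CPM of the members varied together to very different degrees, given here as a description of points that share groups and depth. Among the 36 pairs Pearson's r ran from -0.463 (Mmp9 with Mmp14) to 0.914 (Mmp2 with Mmp12), and Mmp14 with Mmp19 reached 0.908. Within groups, after the group means were taken out, the highest were Mmp3 with Mmp19 (0.615) and Mmp2 with Mmp14 (0.607). The genes most like Mmp12 were Gpnmb (0.957), Trem2 (0.954) and Psap (0.953), of which Gpnmb and Trem2 are macrophage markers. Those most like Mmp14 were Sh3pxd2b (0.972), a scaffold protein of podosomes, and the collagen genes Col5a2 (0.962) and Col3a1 (0.954). For Mmp2 they were Psap (0.947), Mfap5 (0.944) and the macrophage marker Cd68 (0.927), and for Mmp19 Tnc (0.920), Fndc3b (0.920) and fibronectin, Fn1 (0.915).

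Mmp8 was most like Clec4d (0.884), Il1r2 (0.852), a decoy receptor for interleukin-1, and Cd300lf (0.837). Mmp13 was most like Scpep1 (0.862), Tgfb2 (0.854) and Pmepa1 (0.853), a gene known to be induced by TGF-β. Mmp11 was most like Gm13067 (0.879), Mycn (0.873) and Atg7 (0.861). The likeness of Mmp9 (Trim30b at 0.755) and Mmp3 (Spon2 at 0.657) was weaker, each with its highest r given.

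Of the 14 other metalloproteinase genes, 7 passed the filter in the bleomycin model. Against saline lungs, in vehicle lungs, 2 rose and 3 fell. Mmp25, a membrane-anchored enzyme of leukocytes, rose by 1.03 ± 0.22 (edgeR adjusted p = 0.00119), and Mmp23 rose by 0.52 ± 0.16. Mmp28 fell by 0.88 ± 0.26, with 26.4 ± 7.44 CPM in bleomycin lungs given vehicle and 47.8 ± 13.5 CPM in saline lungs given vehicle, and Mmp15, a membrane-type enzyme, fell by 0.72 ± 0.17. With saracatinib in bleomycin lungs, Mmp28 rose by 0.88 ± 0.26 and Mmp15 by 0.53 ± 0.17 (edgeR adjusted p = 0.0329 and 0.0437), and 0 of the 7 fell. With Ad-TGFβ1 and vehicle, 6 passed the filter, of which Mmp25 rose by 0.84 ± 0.22 and Mmp23 fell by 0.85 ± 0.17. Among all genes tested, 20.6% rose and 20.3% fell after bleomycin with vehicle. The values were 5.31% and 8.71% with saracatinib in bleomycin lungs, and 11.5% and 14.3% after Ad-TGFβ1 with vehicle.

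Among the 7 inhibitor genes, 6 had a test after bleomycin, where 2 rose and 1 fell. Timp1, a secreted inhibitor of most metalloproteinases, rose by 3.19 ± 0.43, with 41.2 ± 31.2 CPM in bleomycin lungs given vehicle and 4.42 ± 1.21 CPM in saline lungs given vehicle (edgeR adjusted p = 1.48e-05). Timp3, which binds to matrix, rose by 0.50 ± 0.14, and Reck, a membrane-anchored inhibitor, fell by 1.05 ± 0.15 (edgeR adjusted p = 1.86e-05). With saracatinib in bleomycin lungs, Timp1 fell by 2.15 ± 0.40 to 9.29 ± 4.60 CPM, against 41.2 ± 31.2 CPM with vehicle (edgeR adjusted p = 0.00314), and Reck rose by 0.61 ± 0.15. Against empty vector, in vehicle lungs, Timp1 rose by 0.91 ± 0.21 and Timp3 by 0.46 ± 0.14 after Ad-TGFβ1, with 7 tested and 0 lower. The shares of all genes called higher and lower were 20.6% and 20.3% after bleomycin with vehicle. They were 5.31% and 8.71% with saracatinib in bleomycin lungs, and 11.5% and 14.3% after Ad-TGFβ1 with vehicle.

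Of 18 genes for proteases and partners that activate or induce metalloproteinases, 10 were tested, and in bleomycin lungs given vehicle 5 rose and 0 fell. The 4 largest rises were those of the urokinase gene Plau (1.15 ± 0.18), the plasminogen activator gene Plat (0.92 ± 0.25), the convertase gene Furin (0.74 ± 0.11) and the matriptase gene St14 (0.56 ± 0.14). With saracatinib in bleomycin lungs 0 rose and 3 fell: Plat by 0.87 ± 0.25, Plau by 0.69 ± 0.18 and Furin by 0.48 ± 0.11. In Ad-TGFβ1 lungs given vehicle 2 rose, Pcsk5 and Furin, and 2 fell, Pcsk6 and Hpn. Over all genes tested, 20.6% rose and 20.3% fell after bleomycin with vehicle. With saracatinib in bleomycin lungs 5.31% rose and 8.71% fell, and after Ad-TGFβ1 with vehicle 11.5% rose and 14.3% fell.

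The 14 genes for substrates of the enzymes were all tested. In bleomycin lungs given vehicle 12 rose and 0 fell, with a median of 1.26 against -0.03 over all genes. Tenascin C, Tnc, was at 3.26 ± 0.34, osteopontin, Spp1, at 2.96 ± 0.38, Fn1 at 2.27 ± 0.27 and the collagen gene Col1a1 at 1.71 ± 0.22. With saracatinib in bleomycin lungs 0 rose and 13 fell, with Tnc at -1.86 ± 0.32, Col1a1 at -1.40 ± 0.22, versican, Vcan, at -1.38 ± 0.28 and Fn1 at -1.32 ± 0.26. After Ad-TGFβ1 with vehicle 8 rose and 1, Dcn, fell by 0.45 ± 0.15, and the largest rise was that of elastin, Eln, at 1.63 ± 0.23. Col1a1, Col1a2, Dcn and Lum are also on the fibroblast list, whose sums are given above. Shares of all genes called higher and lower were 20.6% and 20.3% after bleomycin with vehicle. They were 5.31% and 8.71% with saracatinib in bleomycin lungs, and 11.5% and 14.3% after Ad-TGFβ1 with vehicle.

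Of 13 AP-1, ETS and RUNX genes, families known to regulate metalloproteinase genes, all 13 were tested after bleomycin. In vehicle lungs 6 rose and 1 fell. The ETS gene Etv4 was at 3.73 ± 0.53, the AP-1 genes Fosl1 and Fosl2 were at 2.95 ± 0.71 and 1.08 ± 0.28, and Runx2 was at 1.25 ± 0.16, while Jun fell by 0.52 ± 0.13 (named as the single fall, after its value was seen). With saracatinib in bleomycin lungs 0 rose and 2 fell, Etv4 by 1.65 ± 0.42 and Runx2 by 0.50 ± 0.15. In Ad-TGFβ1 lungs given vehicle, with 11 tested, Etv5 rose by 0.71 ± 0.15, and Fosb and Runx1 fell. Of all genes tested, 20.6% were called higher and 20.3% lower after bleomycin with vehicle. The shares were 5.31% and 8.71% with saracatinib in bleomycin lungs, and 11.5% and 14.3% after Ad-TGFβ1 with vehicle.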

How the data were processed

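Gene counts deposited by the submitters were used, 1 table per model, with 55536 Ensembl identifiers, all of which joined GENCODE on GRCm38. STAR 2.6.1d, Picard and featureCounts of Subread 1.6.3 are the tools named in the submitters' processing notes, with mm9 and GRCm38 as builds. Per the labels' protocols, libraries were stranded and depleted of ribosomal RNA. A further 40 columns, named as TMM values but holding raw counts, were not used. Genes were filtered with filterByExpr by group, scaled by TMM and tested in edgeR 4.0.16 (R 4.3.3) with a quasi-likelihood fit, 1 coefficient per group, and Benjamini-Hochberg adjustment over all genes tested. Replicate numbers are names in accession order. Mean chi-square per degree of freedom between replicates was 4.29 to 52.7 over 80 pairs, so no 2 libraries agreed within sampling noise. Printed CPM use TMM over 40 libraries. Depth was 8812233 to 17336972 counts, and the least abundant member had 1 to 59 counts per library, which bounds its precision. The members and lists were chosen with earlier results of these data known. All members are described. From other lists, up to 4 called genes with the largest change and a mean of at least 1 CPM are named, and for likeness the 3 genes with the highest r. Alternatives were DESeq2 1.42.0, its size factors, limma 3.58.1 voom with quality weights, no filter, fits on the groups of a comparison alone, and omission of each library in turn. Omission of the 2 most distant libraries per model, by principal components, was chosen after seeing the data. The script was tested on simulated counts.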

Additional observations from a re-analysis of the deposited data

Results flagged for a closer look

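In 6 of the 72 sets of 5 libraries (9 members in 8 groups), 1 library lay far from the other 4 by Dixon's test. For normally distributed values chance does this in about 1 set in 20, a rate not checked for CPM of low counts. Each of the 6 libraries was the highest of its set. Mmp13 had 3 of these: 4.02 CPM in library 3 of bleomycin with vehicle, where the others had 1.35 to 1.99 CPM, 0.823 CPM in library 4 of saline with saracatinib, where the others had 0.186 to 0.319 CPM, and 1.18 CPM in library 4 of saline with vehicle, where the others had 0.249 to 0.468 CPM. Mmp3 had 31.2 CPM in library 1 of empty vector with saracatinib, and the others 17.9 to 21.3 CPM. Mmp8 had 4.61 CPM in library 3 of Ad-TGFβ1 with vehicle, and the others 2.22 to 2.74 CPM. Mmp19 had 27.7 CPM in library 1 of empty vector with vehicle, and the others 18.8 to 21.1 CPM. In counts, Mmp13 had only 2 to 9 in saline lungs given saracatinib and 3 to 13 in saline lungs given vehicle.

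The injury effect differed between the models for Mmp12, Mmp14 and Mmp11, where bleomycin minus Ad-TGFβ1 was 2.20, 1.16 and 0.52 on the log2 scale (edgeR's quasi-likelihood test of the difference). With limma voom the Mmp12 difference was not called (adjusted p = 0.0507). The saracatinib effect was called as different for Mmp14, by -0.80 in bleomycin lungs minus Ad-TGFβ1 lungs. That call was lost without library 3 of bleomycin with vehicle, and in a fit of the groups involved alone (edgeR adjusted p = 0.0648).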

How the results depend on the processing

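The 29 called member effects were recomputed under 503 alternatives: none reversed, 486 kept their call and 17 lost it. Of 1707 alternatives of the uncalled effects, 30 became called and 102 turned sign. No paired analysis was possible because the labels give no replicate numbers shared between groups. The causes below were not tested.

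With DESeq2, genes called were 793 for Ad-TGFβ1 under saracatinib (485 in edgeR), and for saracatinib 47 in saline (1), 52 in Ad-TGFβ1 (17) and 7 in empty vector lungs (1). Its interactions called 846 (199, bleomycin) and 1 (0, Ad-TGFβ1), and the difference between drug effects 754 (481). It called 1 member lower (0) for Ad-TGFβ1 under saracatinib and 1 (0) for saracatinib in saline, and 1 higher (0) for the drug difference. With limma voom these gene counts were 959, 9, 101, 415 and 413 (Ad-TGFβ1 under saracatinib, saracatinib in saline, in Ad-TGFβ1, both interactions), and 4756 (2951) differed between injury effects. Voom called 1 member lower for the injury difference and 2 for empty vector against saline (0 each in edgeR), and 1 higher for the drug difference. Of all genes, it called 6840 for empty vector against saline and 716 for the drug difference. With no low-count filter, genes called were 3 (saracatinib in saline), 0 (in empty vector) and 219 (drug difference), and Mmp9 was not called after bleomycin, leaving 0 members lower, as with DESeq2 size factors. With only the compared groups, 0 genes were called for saracatinib in empty vector, 3132 (5123) for empty vector against saline with 2 members lower, and 0 members for the drug difference. Without the 2 farthest libraries of each model, genes called were 941 (Ad-TGFβ1 under saracatinib), 0 (saracatinib in saline), 130 (in empty vector), 46 and 254 (interactions, bleomycin then Ad-TGFβ1) and 753 (drug difference), with 0 members lower after bleomycin and 1 for the injury difference.

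Signs of uncalled members turned with voom for Mmp9 after bleomycin under saracatinib (-0.063), Mmp8 after Ad-TGFβ1 under saracatinib (0.39), and under saracatinib Mmp3 in bleomycin (0.24), Mmp11 in saline (0.034) and Mmp12 in empty vector lungs (0.068). Voom also turned the interactions of Mmp13 (0.20, bleomycin), Mmp11 (-0.0024) and Mmp14 (0.036), and the drug differences of Mmp11 (-0.064), Mmp13 (0.25) and Mmp19 (0.027). DESeq2 turned the bleomycin interaction of Mmp12 (0.0055) and the drug difference of Mmp11 (-0.00061), as did its size factors (-0.00036). Without the farthest libraries, Mmp11 turned after Ad-TGFβ1 (-0.024) and with saracatinib in saline (0.013), and the Ad-TGFβ1 interaction of Mmp14 turned (0.026).

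Leaving out 1 library at a time, genes called ran from 181 to 665 for Ad-TGFβ1 under saracatinib and 1672 to 3356 for bleomycin under saracatinib. For saracatinib they ran from 1326 to 2985 in bleomycin, 0 to 4 in saline, 0 to 14 in Ad-TGFβ1 and 0 to 1112 in empty vector lungs. The interactions gave 35 to 583 (bleomycin) and 0 to 1190 (Ad-TGFβ1), and the drug difference 106 to 803. Members lower ran from 0 to 2 after bleomycin, and from 0 to 1 for Ad-TGFβ1 under saracatinib (2 to 4 higher), the Ad-TGFβ1 interaction, the injury difference, empty vector against saline and the drug difference (0 to 1 higher). Ranges that crossed 0 were, after Ad-TGFβ1, -0.039 to 0.075 (Mmp11) and -0.047 to 0.26 (Mmp9), and under saracatinib -0.038 to 0.053 (Mmp11) and -0.59 to 0.61 (Mmp8). After bleomycin under saracatinib they were -0.23 to 0.046 (Mmp3) and -0.18 to 0.31 (Mmp9). For saracatinib they were -0.16 to 0.17 (Mmp3) in bleomycin, -1.04 to 0.22 (Mmp8) in saline, and -0.23 to 0.18 (Mmp12), -0.12 to 0.55 (Mmp13) and -0.15 to 0.018 (Mmp2) in empty vector lungs. Interactions gave -0.16 to 0.33 (Mmp12), -0.50 to 0.50 (Mmp13) and -0.13 to 0.043 (Mmp2) with bleomycin, and -0.065 to 0.061 (Mmp11) and -0.075 to 0.050 (Mmp14) with Ad-TGFβ1. The drug difference gave -0.074 to 0.063 (Mmp11), -0.065 to 0.30 (Mmp12), -0.27 to 0.28 (Mmp13) and -0.35 to 0.054 (Mmp19). Empty vector against saline gave -0.039 to 0.38 (Mmp12), -0.64 to 0.18 (Mmp13) and -0.75 to 0.42 (Mmp8). Depth limits Mmp13 and Mmp8, which had as few as 1 count in a library.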

Other observations

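Mmp10, a stromelysin gene between Mmp3 and Mmp8 on chromosome 9, did not pass the filter on low counts and so has no test. It had 6 to 28 counts per library (median 15) in bleomycin lungs given vehicle, against 0 in each of the 5 saline lungs given vehicle. With saracatinib it had 1 to 4 counts in bleomycin lungs and 0 to 1 counts in saline lungs. Mmp10 was named after its values were seen.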
